A study of Mus musculus with 9 samples.

Results

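The genes described here are 10 genes by which nonclassical monocytes are recognised in the mouse, namely Nr4a1, Ace, Spn, Pparg, Fabp4, Eno3, Cd300e, Adgre4, Pou2f2 and Pecam1. They were chosen by symbol from the 46072 genes of the deposited tables, of which 26108 were above 0 in at least 1 library, and each symbol had 1 row. Their levels were compared across splenic monocytes from female C57BL/6 mice aged 8 to 10 weeks, with 3 groups of 3 libraries. The Con mice received water by gavage, and the Van mice 2 mg vancomycin per day by gavages of 1 mg, both for 6 days. VanLip mice had the same vancomycin and then the lipid L654, a serine-glycine lipid of gut bacteria sensed by TLR2, by the retro-orbital route on days 7, 9 and 11. The labels give a rest without antibiotic of 6 to 8 days, and the account of the RNA sequencing places collection after day 8 of the rest in every group. The cells were not stimulated in culture. The monocytes were enriched by magnetic removal of other cells and were not sorted into subsets, and the series has no group given L654 without vancomycin. The methods name PBS as the vehicle control of L654 but do not say whether the Con and Van mice of these libraries received it.

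Monocytes of the mouse are usually divided into classical cells, which are high in Ly6C and CCR2 and enter inflamed tissue, and nonclassical cells, which are low in Ly6C, high in CX3CR1, and patrol the inner wall of blood vessels. Nonclassical cells arise largely from classical ones, and the orphan nuclear receptor Nr4a1 is needed for their formation and survival. The other genes of the list encode further transcription regulators, surface proteins and metabolic proteins that are higher in nonclassical than in classical cells. In RNA from a mixed monocyte preparation, fewer cells of a type and less RNA per cell cannot be told apart.

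Nr4a1 carried the highest level of the list, and the window around its start site is shown because this gene is switched on quickly by signals that act through the CREB and AP-1 factors. The RefSeq entry for build GRCm38.p6 covers chr15:101266596-101266895 on the plus strand, from 250 bases before to 50 bases after the start. Capitals mark the letters TGCGTCA, which resemble the sites bound by those factors.

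Nr4a1: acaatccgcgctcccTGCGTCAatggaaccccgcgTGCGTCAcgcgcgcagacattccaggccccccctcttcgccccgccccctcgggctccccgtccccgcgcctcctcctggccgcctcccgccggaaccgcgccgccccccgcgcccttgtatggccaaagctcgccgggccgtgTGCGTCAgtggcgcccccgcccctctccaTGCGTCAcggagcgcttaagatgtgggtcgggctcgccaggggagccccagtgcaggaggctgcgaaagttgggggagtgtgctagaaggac

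The window held 4 copies of TGCGTCA, counted on both strands (reverse complement TGACGCA). Among 32851 windows of the same length, 2.12% held at least 1 copy, and 1 window, that of Nr4a1 itself, held 4 or more. These letters were picked after the sequence had been read. Of the 10 genes, 8 had 11 windows in the table, and in these neither the NR4A site AAAGGTCA nor the octamer ATGCAAAT bound by POU proteins was found on either strand, against 1.51% and 1.74% of all windows. None of these matches was tested for binding.

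The total expected count per library, the sum of the estimated and unnormalized counts, lay between 43070361 and 61383806 in Con and Van and between 170503470 and 184720704 in VanLip. The commonest count below 2.5, which is the size of 1 read, was 1.33 in all Con and Van libraries but 2.00 in all VanLip libraries. With counts divided by that size, the totals were 32383681 to 46153257 in Con and Van and 85251729 to 92360339 in VanLip. Sequencing depth and read size therefore coincided with the VanLip group, and their effect cannot be told apart from that of the treatment in either VanLip comparison. Among marker genes of other cells, the summed level of 10 red pulp macrophage genes was 1514 to 2469 FPKM over the 9 libraries, led by Hmox1, C1qa and C1qc, while 10 T or NK cell genes summed to at most 3.81 FPKM and 9 B cell genes to at most 14.4 FPKM. Markers of neutrophils (9 genes, Ly6g at 0 in every library) summed to 13.6 to 37.2 FPKM and those of dendritic cells (7 genes) to 39.5 to 67.3 FPKM. Of the dendritic genes, 3 were lower in Van than in Con, namely Clec9a (log2 -1.12 ± 0.21, DESeq2 adjusted p = 1.55e-05), Siglech (-0.89 ± 0.29, 0.0474) and Xcr1 (-0.85 ± 0.23, 0.00897), and Clec9a (0.67 ± 0.20, 0.0172) and Siglech (0.85 ± 0.28, 0.0315) were higher in VanLip than in Van. For VanLip against Con 2 were lower, Xcr1 and Cd209a. Over the 9 libraries Clec9a was at 1.11 to 3.03 FPKM, Siglech at 0.609 to 1.69 and Xcr1 at 0.307 to 0.672, and the dendritic sum was led by Cd209a, Ccr7 and Flt3. For Van against Con 1 of the 7 had a positive log2 value, Flt3 (0.25 ± 0.18, DESeq2 adjusted p = 0.608). Of all genes with an adjusted p, 4.34% were called between Van and Con, 6.23% between VanLip and Con and 9.2% between VanLip and Van. In the same order, edgeR called 0.743%, 1.14% and 2.86% of all genes and 1, 0 and 0 of the 7 dendritic genes, and an unadjusted DESeq2 p under 0.05 was found for 11.1%, 13% and 15.5% of all genes. The erythroid markers, led by Hba-a1 and Hbb-bs, had sums of 56.8 to 114 FPKM in Con, 189 to 430 in Van and 155 to 640 in VanLip. Of the 4 with counts, 3 were higher in Van than in Con and 4 in VanLip than in Con, with median log2 fold changes of 1.82 and 2.54, and none was called between VanLip and Van (0 at an unadjusted p under 0.05). With edgeR 4 of them were called between VanLip and Con and 0 in each of the other comparisons. The part of dendritic and erythroid cells in the results was not tested. The monocyte markers Lyz2 and Csf1r were high in all libraries, at 6428 to 9154 and 528 to 643 FPKM.

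All 10 genes were expressed in all 9 libraries, at no less than 12.6 FPKM. FPKM counts fragments relative to the length of the transcript and to the mapped fragments of each library, so that levels of different genes can be set side by side. Over all libraries the mean ranged from 23.3 FPKM for Pecam1, higher than 88.9% of the detected genes, to 1162 FPKM for Nr4a1, the gene with rank 28 by mean level. Nr4a1 and Ace held the first and the second place in each group, with no overlap between the libraries of both genes. In Con the order was Nr4a1, Ace, Adgre4, Spn, Eno3, Cd300e, Pou2f2, Pparg, Fabp4 and Pecam1, and the ranges overlapped between Adgre4 and Spn, between Eno3 and Cd300e and between Pparg and Fabp4. The lower end of the order differed among groups: Pecam1 was the lowest in Con, with no overlap, whereas in Van its mean stood above those of Fabp4 and Pparg with overlapping ranges. In VanLip its mean was again the lowest, but its range overlapped that of Pparg, the next gene.

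**Figure D1:**
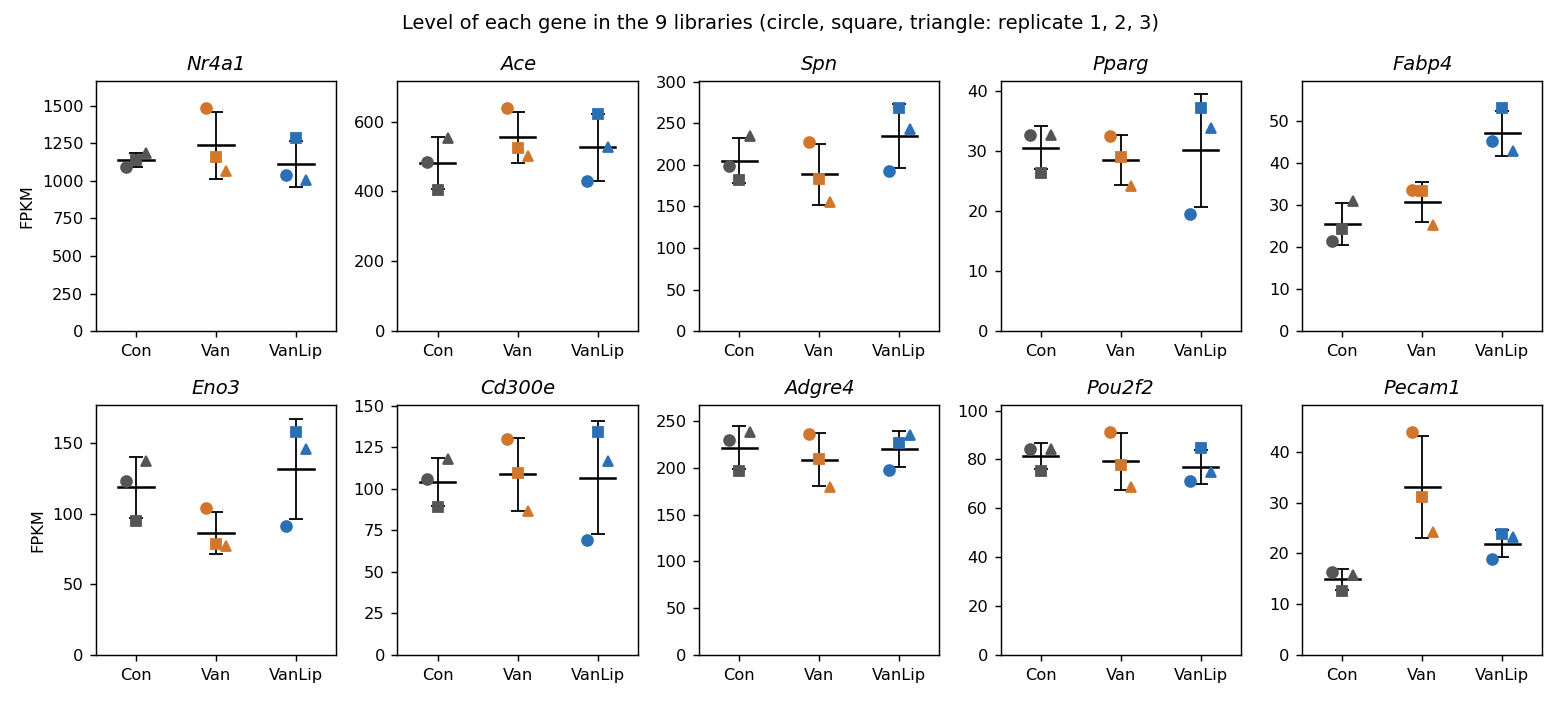
Level of each of the 10 genes in FPKM (y axis, from 0) in the Con, Van and VanLip groups (x axis). Symbols are single libraries, the horizontal bar is the mean and the whiskers are ± 1 SD (n = 3). Pecam1 lay between 12.6 and 16.3 FPKM in Con and between 24.2 and 44.0 FPKM in Van, and Fabp4 lay between 42.9 and 53.2 FPKM in VanLip, above all other libraries.

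The regulators of the list are considered first. Nr4a1 (ENSMUSG00000023034, GRCm38, chromosome 15, 101254269 to 101274795, plus strand) measured 1093, 1141 and 1185 FPKM in Con replicates 1 to 3, 1485, 1159 and 1063 in Van, and 1040, 1287 and 1006 in VanLip. The 3 groups overlapped, and the single high value was Van replicate 1. Its log2 fold change was 0.11 ± 0.13 (SE) in Van against Con (95% interval -0.15 to 0.36), -0.06 ± 0.13 in VanLip against Con (-0.31 to 0.20) and -0.16 ± 0.13 in VanLip against Van (-0.42 to 0.09). No Nr4a1 difference passed the test, with DESeq2 adjusted p-values of 0.83, 0.90 and 0.548.

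Pou2f2, a POU-domain transcription factor also named Oct2, was at 75.2 to 84.3 FPKM in Con, 68.6 to 91.4 in Van and 71.0 to 84.6 in VanLip. Its range over all libraries, with the highest 1.33 times the lowest, was as narrow as that of Adgre4. The 95% intervals of its log2 fold change lay between -0.29 and 0.20 in all 3 comparisons. Pparg, the nuclear receptor that governs fatty acid uptake and storage, measured 32.6, 26.4 and 32.6 FPKM in Con, 32.5, 28.9 and 24.1 in Van, and 19.4, 37.2 and 33.8 in VanLip. Both the lowest and the highest Pparg value of the series were in VanLip, where the coefficient of variation was 31.3% against 11.7% in Con. Its log2 intervals reached from -0.50 to 0.46 over the 3 comparisons.

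Among the surface proteins and enzymes at the cell surface, Pecam1 differed most. Pecam1 (ENSMUSG00000020717, chromosome 11, 106654217 to 106750628, minus strand) encodes CD31, an adhesion protein of leukocytes, platelets and endothelium that takes part in passage through vessel walls. It measured 16.3, 12.6 and 15.8 FPKM in Con, 44.0, 31.2 and 24.2 FPKM in Van, and 18.8, 23.9 and 23.2 FPKM in VanLip. The 3 ranges did not overlap: every Van library was above every VanLip library, and every VanLip library above every Con library, although Van replicate 3 and VanLip replicate 2 lay close together.

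Pecam1 was 2.202-fold higher in Van than in Con (log2 1.14 ± 0.18 SE, 95% interval 0.782 to 1.496, DESeq2 adjusted p = 1.88e-07). It was lower in VanLip than in Van by a log2 value of -0.61 ± 0.18 (DESeq2 adjusted p = 0.0138). Against Con, VanLip was higher by 0.53 ± 0.18, which did not pass (DESeq2 adjusted p = 0.0542). These comparisons share libraries and are not independent of each other.

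Because Pecam1 is also made by endothelium and platelets, their markers were examined. Of 10 endothelial genes, 2 had a mean of at least 1 FPKM, Flt1 with group means of 9.19 FPKM in Con, 11.5 in Van and 7.05 in VanLip, and Stab2 at 7.17 to 10.4 FPKM, and Cdh5 was at or under 0.283 FPKM in all 9 libraries. The endothelial genes summed to 17.5 to 19.6 FPKM in Con, 19.8 to 22.2 in Van and 14.8 to 20.8 in VanLip. None of the 10 was called for Van against Con (2 at an unadjusted p under 0.05, and 0 with edgeR), where 4 of 10 had a positive log2 value. Flt1 (log2 -0.69 ± 0.14, DESeq2 adjusted p = 2.63e-05) and Kdr (-1.06 ± 0.32, 0.0164) were lower in VanLip than in Van, as Pecam1 was, beside 9.2% of all genes called. Kdr was at 0.0835 to 0.295 FPKM over the 9 libraries. The other genes, 8 of 10, had a positive log2 value for VanLip against Van, opposite to Pecam1 (median of those with an adjusted p 0.07). With edgeR 1 of the 10 was called in that comparison, beside 2.86% of all genes. Of 10 platelet genes, led by Itgb3, Ppbp and Pf4, none was called in any comparison (1, 3 and 1 at an unadjusted p under 0.05, and 0 with edgeR), and their sum was 21.2 to 36.9 FPKM in Con, 19.2 to 24.8 in Van and 14.1 to 26.7 in VanLip. A positive log2 value was found for 1 of 10 for Van against Con (median -0.57) and 3 of 10 for VanLip against Van (-0.17). The red pulp macrophage sum was 1573 to 1914 FPKM in Con, 1826 to 2469 in Van and 1514 to 1999 in VanLip, and Vcam1 of that list was higher in Van than in Con (log2 0.46 ± 0.12, DESeq2 adjusted p = 0.0106) and lower in VanLip than in Van (-0.50 ± 0.12, 0.00186). It was the only one of the 10 called, beside 4.34% and 9.2% of all genes. Over the list, 9 of 10 genes had a positive log2 value for Van against Con (median 0.22) and 0 of 10 for VanLip against Van (median -0.24), the same signs as Pecam1, where the median over all genes tested was -0.01 and 0.01. With edgeR, 0 of the 10 macrophage genes were called between Van and Con (3 at an unadjusted DESeq2 p under 0.05) and 1 between VanLip and Van. The part of these cells in the Pecam1 values was not tested.

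Ace, angiotensin-converting enzyme, lay at 403 to 554 FPKM in Con, 502 to 639 in Van and 430 to 621 in VanLip, with overlap in every comparison. Spn, the sialophorin CD43 by which nonclassical cells are often gated, was at 182 to 235 FPKM in Con, 155 to 227 in Van and 193 to 269 in VanLip. For VanLip against Van the log2 difference of Spn was 0.31 ± 0.15, with an unadjusted p of 0.0398 and a DESeq2 adjusted p of 0.214. Adgre4, an adhesion G protein-coupled receptor, and Cd300e, an immunoglobulin-family receptor, had log2 fold changes between -0.10 and 0.07 in all 3 comparisons. Their precision differed: the intervals of Adgre4 lay between -0.32 and 0.29, and those of Cd300e reached from -0.58 to 0.60. Cd300e was 68.9 FPKM in VanLip replicate 1 and 134 FPKM in VanLip replicate 2.

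The proteins of metabolism gave the remaining calls. Fabp4, a fatty acid carrier and a target of PPAR gamma (ENSMUSG00000062515, chromosome 3, 10204088 to 10208576, minus strand), measured 21.4, 24.3 and 30.9 FPKM in Con, 33.6, 33.4 and 25.2 in Van, and 45.4, 53.2 and 42.9 in VanLip. The VanLip libraries stood above all others, whereas Con and Van overlapped. On normalized counts the VanLip libraries were at 4758 to 5700 and the Con libraries at 3138 to 4361, again without overlap, but Van replicate 1 at 5296 lay within the VanLip range.

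Fabp4 was 1.38-fold higher in VanLip than in Con on the counts (log2 0.46 ± 0.16, 95% interval 0.16 to 0.77), and the DESeq2 adjusted p of 0.048 was just under the threshold. The ratio of the FPKM means was 1.85 for the same comparison. For the other 9 genes the ratio on FPKM was between 0.987 and 1.02 times that on counts in all comparisons, so Fabp4 was the one gene whose size of change depended on the unit. The annotation lists 2 transcripts of Fabp4 whose exons merge into 1 block over the whole gene, and the share of each transcript was not examined. For VanLip against Van the log2 change of Fabp4 was 0.26 ± 0.16 (DESeq2 adjusted p = 0.354), and for Van against Con 0.20 ± 0.16 (0.633). Of 6 adipocyte markers, Plin1 and Lep were at 0 in every library and the sum did not exceed 0.229 FPKM.

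Eno3, the enolase form best known from muscle (ENSMUSG00000060600, chromosome 11, 70657202 to 70662513, plus strand), measured 123, 95.2 and 138 FPKM in Con, 104, 78.2 and 77.2 in Van, and 91.5, 158 and 146 in VanLip. The Van libraries were low, yet VanLip replicate 1 lay within their range and Con replicate 2 below the highest of them. Eno3 was 1.52-fold higher in VanLip than in Van (log2 0.60 ± 0.19, 95% interval 0.22 to 0.98, DESeq2 adjusted p = 0.026). For Van against Con it was lower by a log2 value of -0.46 ± 0.19, with an unadjusted p of 0.0168 and a DESeq2 adjusted p of 0.185. Of 5 skeletal muscle markers, 1 reached a mean of 1 FPKM, Tnnt3 at 2.26 to 3.83 FPKM, and Acta1 was at or under 0.23 FPKM.

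Over the list, 1 of 10 genes was called for Van against Con, where 4.34% of the 18516 genes with an adjusted p were called. For VanLip against Con 1 of 10 was called against 6.23% of 17535, and for VanLip against Van 2 of 10, 1 higher and 1 lower, against 9.2% of 19009. The median log2 fold change of the 10 was 0.01, 0.07 and 0.02 in these comparisons, beside -0.01, 0.01 and 0.01 over all genes tested. Groups did not overlap in FPKM for 1, 2 and 2 of the 10 genes, against 23.5%, 25.7% and 29.4% of the 11710 genes with a mean of at least 1 FPKM. Among the genes not called, the widest interval bound was a 1.79-fold difference between Van and Con, 1.85-fold between VanLip and Con and 1.53-fold between VanLip and Van.

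**Figure D2:**
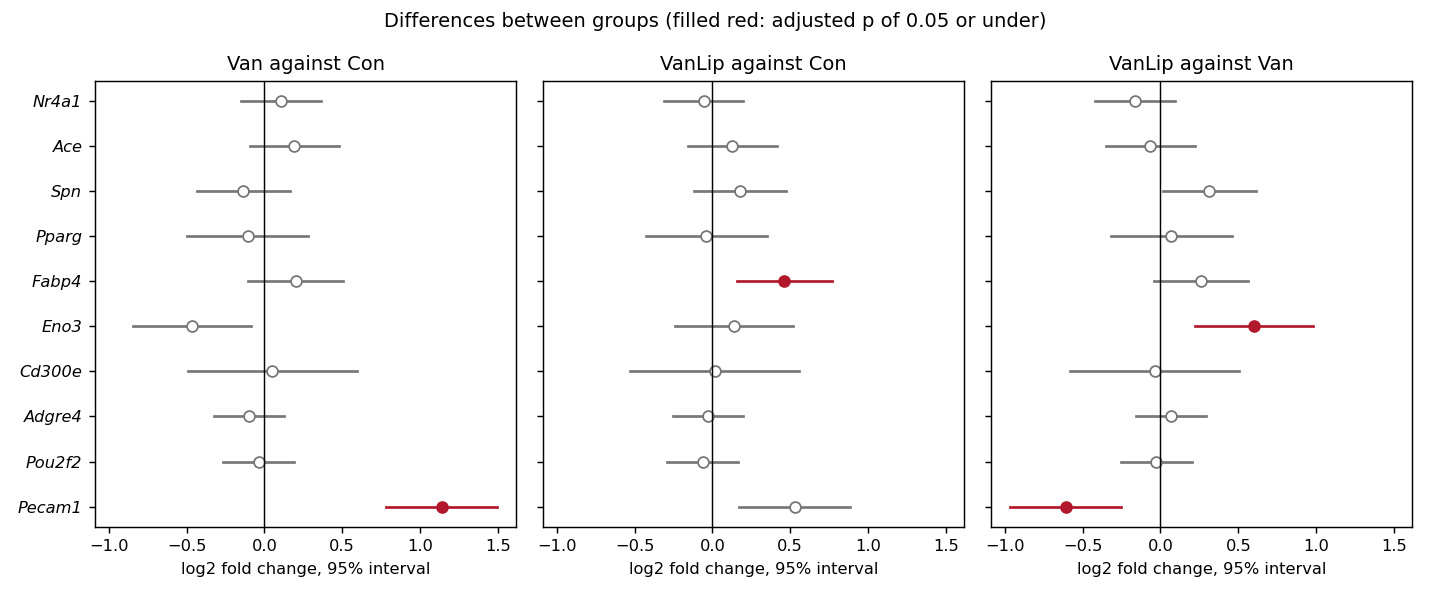
Log2 fold change on normalized counts (x axis) of each of the 10 genes (y axis) in the 3 comparisons, with 95% intervals from DESeq2. Filled red points passed an adjusted p of 0.05: Pecam1 for Van against Con (1.14), Fabp4 for VanLip against Con (0.46), and Eno3 (0.60) and Pecam1 (-0.61) for VanLip against Van.

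The libraries of a group were placed alike for many of the 10 genes. On the log2 (FPKM + 1) scale, Van replicate 1 was the highest Van library for 10 of 10 genes and Van replicate 3 the lowest for 10 of 10. In VanLip, replicate 2 was the highest for 9 and replicate 1 the lowest for 8, and in Con, replicate 3 was the highest for 9 and replicate 2 the lowest for 8. Nr4a1 and Fabp4 were the exceptions at the lower end, with Con replicate 1 and VanLip replicate 3 as their lowest libraries. This placement was not examined over all genes and was not tested. The median deviation from the group mean ran from -0.24 in VanLip replicate 1 to 0.24 in Van replicate 1.

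The 12 classical monocyte genes, among them Ccr2 and Chil3, were mostly placed the other way in several of these libraries. VanLip replicate 1 was the highest of its group for 11 of the 12 and Van replicate 3 for 9, with median deviations of 0.35 and 0.26, while Van replicate 1 was the lowest for 9. The exception in VanLip replicate 1 was Ly6c2, a gene of the Ly6C antigen that defines classical cells, which was the lowest of its group there (deviation -0.08). Among the 12 classical genes Chil3 had the largest deviation in that library. It was 872 FPKM in VanLip replicate 1 and 609 FPKM in Van replicate 3, against 160 to 374 FPKM in the other 7 libraries. The libraries also differed in markers of other cells: VanLip replicate 1 was the lowest of its group for 8 of 10 red pulp macrophage genes (median -0.23) and for 3 of 3 erythroid genes (-1.28), and Van replicate 2 was the highest of its group for 10 of 10 macrophage genes (0.25). These are descriptions of 9 libraries, and the part of classical monocytes or other cells in the values of the 10 genes was not tested.

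**Figure D3:**
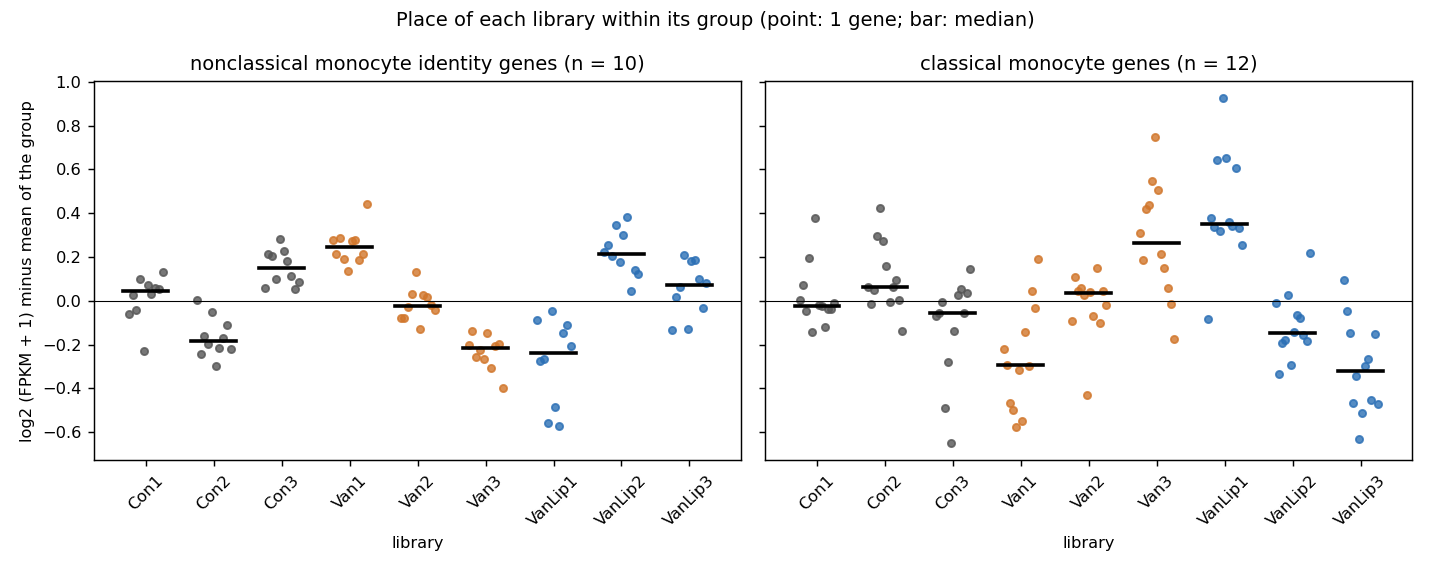
Deviation of log2 (FPKM + 1) from the mean of the group (y axis) in each library (x axis), for the 10 nonclassical genes and the 12 classical genes. Points are genes and bars are medians. In VanLip replicate 1 the median was -0.24 for the nonclassical genes and 0.35 for the classical genes.

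Further genes of the subset and of the pathways around it were counted. Of 19 other nonclassical monocyte genes, 1 was called between Van and Con, none between VanLip and Con and 3 between VanLip and Van, beside 4.34%, 6.23% and 9.2% of all genes. At an unadjusted p under 0.05 there were 5, 3 and 6 of them, beside 11.1%, 13% and 15.5% of all genes, and edgeR called 0, 0 and 2, beside 0.743%, 1.14% and 2.86%. Ear2, an eosinophil-associated ribonuclease, was lower in Van than in Con (log2 -0.35 ± 0.08, DESeq2 adjusted p = 0.000689) and higher in VanLip than in Van (0.48 ± 0.08, 7.87e-08). Its levels were 335, 369 and 352 FPKM in Con, 280, 293 and 261 in Van, and 354, 401 and 417 in VanLip, and the Van range overlapped neither of the others. Cx3cr1, the fractalkine receptor that defines the subset, was higher in VanLip than in Van (0.43 ± 0.11, 0.00278), and the Fc receptor gene Fcgr4 was lower (-0.48 ± 0.16, 0.0365).

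Of 15 immediate early genes and relatives of Nr4a1, which like Nr4a1 respond within a short time to stimulation and to handling of cells, none was called for Van against Con. At an unadjusted p under 0.05 there were 2, beside 11.1% of all genes, and edgeR called 0. For VanLip against Con 4 were lower, Atf3, Egr3, Egr1 and Btg2, and none was higher. For VanLip against Van 4 were lower, Atf3, Fosb, Jun and Egr3, and Junb was higher. These 4 and 5 of 15 stand beside 6.23% and 9.2% of all genes called. With edgeR 2 of the 15 were called in each VanLip comparison, beside 1.14% and 2.86% of all genes. Atf3, a stress-induced regulator, measured 348, 433 and 378 FPKM in Con, 389, 357 and 371 in Van and 273, 254 and 240 in VanLip (log2 -0.61 ± 0.10 against Con, DESeq2 adjusted p = 5.25e-08). Nr4a2 and Nr4a3, the relatives of Nr4a1, were at 12.8 to 40.1 and 0.704 to 4.06 FPKM over the 9 libraries and were not called.

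Of 17 partners and targets of the PPAR receptors, Rxrb, a retinoid X receptor (log2 0.28 ± 0.08, DESeq2 adjusted p = 0.0239), and Abcg1, a cholesterol exporter (0.35 ± 0.09, 0.00679), were higher in Van than in Con. Med1, a coactivator subunit, was lower in VanLip than in Con (-0.19 ± 0.06, 0.0215), and Plin2, a lipid droplet protein, was lower in VanLip than in Van (-0.51 ± 0.16, 0.0203). Fabp4 and Plin2, both known targets of PPAR gamma, had log2 values of opposite sign for VanLip against Van. That of Plin2 passed and that of Fabp4 did not (0.26 ± 0.16, DESeq2 adjusted p = 0.354). The activity of PPAR gamma was not tested. The calls were 2, 1 and 1 of the 17, beside 4.34%, 6.23% and 9.2% of all genes in these comparisons. With edgeR none of the 17 was called, where 4, 2 and 4 had an unadjusted DESeq2 p under 0.05, beside 11.1%, 13% and 15.5% of all genes.

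Of the 12 classical genes, 4 were called between Van and Con, 1 between VanLip and Con and 4 between VanLip and Van, beside the 4.34%, 6.23% and 9.2% of all genes given above. With edgeR 2, 0 and 3 of them were called, beside 0.743%, 1.14% and 2.86% of all genes. An unadjusted DESeq2 p under 0.05 was found for 5, 3 and 5, beside 11.1%, 13% and 15.5%. Ccr2, the chemokine receptor for exit from the bone marrow, was 173, 163 and 159 FPKM in Con, 70.4, 93.0 and 98.2 in Van, and 256, 156 and 190 in VanLip. It was lower in Van than in Con (log2 -0.83 ± 0.18, DESeq2 adjusted p = 0.00048) and higher in VanLip than in Van (1.04 ± 0.18, 7.78e-07). Ifitm6 had the same signs (-0.57 ± 0.13, 0.000792, and 0.65 ± 0.13, 2.61e-05), and Clec4e the opposite ones (0.64 ± 0.18, 0.0123, and -1.16 ± 0.18, 7e-09). Vcan was higher in Van than in Con, Ly6c2 higher in VanLip than in Van and Hp higher in VanLip than in Con.

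For each gene called at least once, the most similar patterns over the 9 libraries were sought among 11709 genes with a mean of at least 1 FPKM. The highest Pearson r on log2 (FPKM + 1) was 0.949 for Pecam1 with Rnf216, 0.945 with Fancc and 0.939 with 2610015P09Rik. For Eno3 it was 0.982 with Ikzf3, 0.966 with Gpr155 and 0.956 with Ccm2, and for Fabp4 0.966 with Ccdc61, 0.960 with Tmem175 and 0.956 with Hmgb1-ps2. On deviations from the group means the r of the first-ranked genes was 0.960 for Rnf216, 0.969 for Ikzf3 and 0.857 for Ccdc61. These values describe 9 libraries that share their groups and depths.

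The calls differed in how they held under other settings. Pecam1 for Van against Con was called without each library in turn (log2 0.87 to 1.31) and with the edgeR quasi-likelihood test (adjusted p = 0.0126), but not with limma on FPKM (adjusted p 0.0592 to 0.146). Fabp4 for VanLip against Con was called in 4 of 9 fits without 1 library and in 7 of 14 other settings, and Eno3 for VanLip against Van in 4 of 9 and 9 of 14. Pecam1 for VanLip against Van was called in 7 of 9 and 10 of 14, and without Van replicate 1 its log2 value was -0.34 (adjusted p = 0.142).

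**Figure D4:**
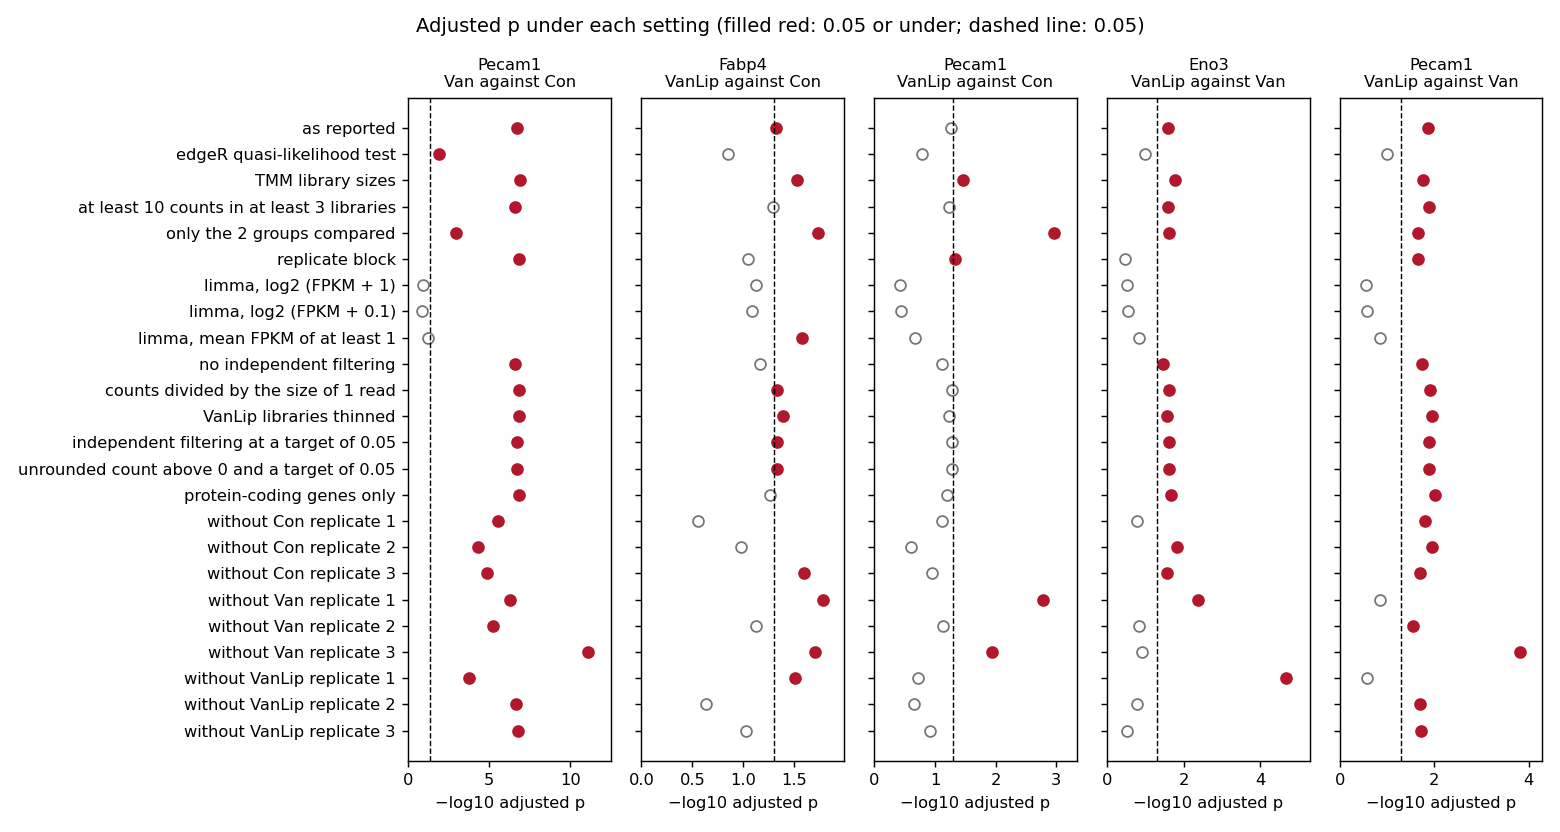
Adjusted p on the −log10 scale (x axis) of 5 results under each setting (y axis). The dashed line is an adjusted p of 0.05 and filled red points are at or under it. Pecam1 for Van against Con passed in 20 of the 23 other settings, and Fabp4 for VanLip against Con in 11.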

How the data were processed

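RNA of enriched splenic monocytes from 9 libraries was analysed, 3 per group, with groups and replicate numbers from the sample titles. Per the submitters' notes the authors aligned reads to GRCm38 with HISAT2 2.2.1 and SAMtools 1.9. The authors deposited FPKM values from StringTie 2.1.3, and expected counts obtained from them with tximport 1.26.1, which are neither whole nor normalized. The annotation release is not given in the sources used here. GENCODE M21 supplied coordinates for 99% of the detected genes.

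The Wald test of DESeq2 1.42.0 was run on rounded expected counts of 25441 genes with a count in 1 library or more, in R 4.3.3 with all libraries in 1 fit, group as the only term, median-of-ratios sizes and default independent filtering (target 0.1). P-values were two-sided, Benjamini-Hochberg adjusted and called at 0.05. With DESeq2 the adjustment covered the genes left by the filtering, 18516, 17535 and 19009 in the 3 comparisons, and with edgeR all 25441. The shares of all genes called at an adjusted p are of these numbers. Per the study, each group comprised 3 mice. All 10 genes were named. From other lists the called genes could be named, up to 5 per list and comparison, from marker lists the 3 highest and those at 0, and for each called gene the 3 genes most like it. Kdr, Vcam1, Cdh5, Clec9a, Siglech and Xcr1 were named after their values were seen, as were examples of levels. The genes and lists were chosen with earlier results of these data known. Alternatives used edgeR 4.0.16, limma 3.58.1 on log2 FPKM with pseudocounts of 1 and 0.1, other filters and sizes, a replicate block and leaving out each library. The tests were tested on simulated data.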

Additional observations from a re-analysis of the deposited data

How the results depend on the processing

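Besides the settings planned, 2 filter settings were added after seeing the data: independent filtering at a target of 0.05, and that target with genes whose unrounded count was above 0. Both left the calls at 1, 1 and 2. Of 690 recomputed log2 values, 620 kept direction and call, 31 lost the call, 9 gained it and 30 changed sign, none of those that changed sign being a result that was called. For Van against Con, the number of the 10 genes called was 0 with each of the 3 limma fits and 2 (Eno3 added) with only the 2 groups compared, and 1 to 2 without 1 library (2 without VanLip replicate 1). For VanLip against Con it was 0 with edgeR, with at least 10 counts in at least 3 libraries, without independent filtering, with protein-coding genes only and with limma at pseudocounts of 1 and 0.1, and 2 (Pecam1 added) with TMM sizes and with only the 2 groups. Without 1 library it was 0 to 2: Fabp4 was lost without Con replicate 1 or 2, Van replicate 2, or VanLip replicate 2 or 3. For VanLip against Van it was 0 with edgeR and the 3 limma fits, and 1 to 2 without 1 library: Pecam1 was lost without Van or VanLip replicate 1, where Spn was called, and Eno3 without Con replicate 1, Van replicate 2 or 3, or VanLip replicate 2 or 3. The causes were not tested. The share of all genes called was 0.743%, 1.14% and 2.86% with edgeR.

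Deviations of same-numbered libraries from their group means had r of -0.207 to 0.113 over 9 pairs. The titles give replicate numbers and no pairing. With 3 libraries per group these values cannot exclude a link between same-numbered libraries, least of all for single genes. With a replicate block the calls were 1, 1 (Pecam1 in place of Fabp4) and 1 (Eno3 lost) in the 3 comparisons.

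Cd300e for VanLip against Con changed sign with limma (-0.0407 with a pseudocount of 1, also when limited to genes averaging 1 FPKM or more, and -0.0416 with 0.1). Without 1 library the sign changed for 15 results, with these lowest and highest log2 values. For Van against Con they were -0.0566 and 0.20 for Nr4a1, -0.11 and 0.19 for Cd300e and -0.17 and 0.0647 for Pou2f2. For VanLip against Con they were -0.17 and 0.0111 for Nr4a1, -0.0008 and 0.24 for Ace, -0.21 and 0.19 for Pparg, -0.0048 and 0.34 for Eno3, -0.18 and 0.24 for Cd300e and -0.11 and 0.0304 for Adgre4. For VanLip against Van they were -0.27 and 0.0019 for Nr4a1, -0.19 and 0.0587 for Ace, -0.10 and 0.30 for Pparg, -0.23 and 0.19 for Cd300e, -0.0248 and 0.18 for Adgre4 and -0.13 and 0.11 for Pou2f2.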
